A study of Mus musculus with 12 samples.

Results

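The genes of the urea cycle, together with 3 genes of amino acid breakdown in the hepatocytes around the portal vein, were followed across 12 mouse livers. The members were 10 genes chosen by name: Nags, Cps1, Slc25a15, Otc, Ass1, Asl and Arg1 of the cycle, and Hal, Gls2 and Sds beside it. Of these, 7 had a probe of their own, out of 19938 genes named in the series. Ass1 had only probes that the array annotation gives to both Ass1 and the pseudogene Gm5424, so their signal is reported as that of Ass1 or Gm5424 and is not counted among the 7. Gls2 and Sds were not analysed here, since the annotation used lists no probe under either name.

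Each liver was read on 1 one-colour Affymetrix array. The groups were mTERT knock-out (KO), mTERT wild-type (WT), mTR KO and mTR WT, with 3 mice each. The KO mice lacked either the protein part (mTERT) or the RNA part (mTR) of telomerase and were of the first generation, G1. All 12 were C57BL/6J males with no treatment, matched for age; the age itself is not given in the sources used here. Mice are numbered 1 to 3 within a group, and a KO and a WT mouse of the same line and number were taken as littermates. The study asked how deleting either part of telomerase alters gene expression in liver.

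The urea cycle turns ammonia, which is toxic to the brain, into urea for excretion, and the liver is the organ that runs it in full. The cycle works in hepatocytes and most strongly in those near the portal vein, where blood from the gut enters. In the mitochondrion, NAGS makes the activator that CPS1 needs to build carbamoyl phosphate from ammonia, and OTC joins this to ornithine to give citrulline. SLC25A15 carries ornithine in and citrulline out, ASS1 and ASL then form arginine in the cytosol, and ARG1 splits arginine into urea and ornithine. HAL takes ammonia off histidine and so opens its breakdown.

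Promoter windows, from 250 bases before to 50 bases after the annotated start, were given for 5 of the 10 members by RefSeq (GRCm38.p6). The windows of Slc25a15 (chr8:22398572-22398871, minus strand), Otc (chrX:10252055-10252354, plus strand) and Hal (chr10:93488518-93488817, plus strand) are shown because these genes varied between livers in different ways. Slc25a15 has 2 annotated starts, and the one farthest upstream is used. Each is written 5′ to 3′ along the gene, and capitals mark a match to a searched motif.
Slc25a15: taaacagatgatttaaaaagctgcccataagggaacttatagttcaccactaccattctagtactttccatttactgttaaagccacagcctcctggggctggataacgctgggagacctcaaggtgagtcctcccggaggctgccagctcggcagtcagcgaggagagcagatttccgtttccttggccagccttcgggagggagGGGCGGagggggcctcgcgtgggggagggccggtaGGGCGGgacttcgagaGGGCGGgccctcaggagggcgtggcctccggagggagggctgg
Otc: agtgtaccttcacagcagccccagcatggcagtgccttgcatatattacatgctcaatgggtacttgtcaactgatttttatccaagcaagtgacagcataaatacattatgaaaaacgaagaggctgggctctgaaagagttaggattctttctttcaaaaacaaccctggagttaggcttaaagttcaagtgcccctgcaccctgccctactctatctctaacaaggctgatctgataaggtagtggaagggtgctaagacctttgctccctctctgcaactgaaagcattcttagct
Hal: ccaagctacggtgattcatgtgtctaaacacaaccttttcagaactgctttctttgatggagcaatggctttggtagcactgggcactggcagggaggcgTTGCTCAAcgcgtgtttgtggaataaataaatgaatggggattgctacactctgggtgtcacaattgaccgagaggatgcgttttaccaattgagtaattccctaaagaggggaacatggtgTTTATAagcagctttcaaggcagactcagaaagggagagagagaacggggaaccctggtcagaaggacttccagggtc
The motifs were searched on both strands. TATAAA, the TATA box, occurs in 13.6% of all 32851 windows of this length. TGACG, the half-site of the cyclic AMP response element, occurs in 20.8% of them, and TGTTCT, the half-site of the glucocorticoid receptor, in 19.0%. TTGNNCAA, a core bound by C/EBP factors, occurs in 6.4%, and GGGCGG, the GC box of Sp1, in 35.7%. The Slc25a15 window held the GC box at 3 positions, beginning at bases −44, −9 and 7 relative to the start. The Hal window held the C/EBP core beginning at −150 and the TATA box, on the minus strand, at −28; the matches did not overlap. The Otc window held none of the 5 motifs. A match describes these letters and is not evidence of binding.

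Values are log2 intensities as deposited, with the base read as 2 from their range. Array medians ran from 4.369 to 4.435. The background level was taken as the 95th percentile of olfactory receptor genes, silent in liver, averaged over the arrays, and was 4.34. The filter for tested probes, 3.898, lies below this level. The mean of 7 hepatocyte marker genes lay between 12.06 and 12.34 on the 12 arrays. Tert was 3.95 to 4.15 in mTERT KO and 4.13 to 4.83 in mTERT WT, where mouse 1 lay inside the KO range; Terc was 3.87 to 4.48 on all arrays, at or near background, and checks nothing. The RNA came from whole homogenised liver, so fewer cells of a type and less RNA per cell cannot be told apart. Some livers carried RNA of other tissues. The mean of 12 pancreas acinar genes reached 9.88 (mTERT KO 1), 11.32 (mTR KO 1), 7.58 (mTERT WT 1), 9.02 (mTERT WT 2) and 7.0 (mTR WT 2), and lay at 3.86 to 4.06 elsewhere. For 13 genes of skeletal muscle the mean reached 6.89 (mTERT WT 1) and 6.46 (mTERT WT 3) and lay at 3.85 to 4.50 elsewhere.

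Nags and Cps1, at the entry of the cycle, were the steadiest members. Nags read 8.08, 7.92 and 7.99 in mTERT KO mice 1, 2 and 3, and 8.07, 8.12 and 7.97 in mTERT WT. It read 7.99, 8.0 and 8.13 in mTR KO livers, against 8.0, 8.02 and 8.16 in mTR WT livers. KO and WT overlapped in both lines, and the SD of Nags over all 12 arrays was 0.074, against a median of 0.166 over the probes tested. Cps1, the gene of the enzyme that commits ammonia to the cycle, read 12.68, 12.85 and 12.63 in mTERT KO livers, against 12.76, 12.75 and 12.81 in mTERT WT livers. It read 12.75, 12.77 and 12.80 in mTR KO livers, against 12.76, 12.61 and 12.83 in mTR WT livers. Its groups overlapped too, and its lowest and highest arrays were 1.18-fold apart.

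Otc and Slc25a15 complete the mitochondrial steps and varied more. Otc read 10.23, 10.36 and 10.29 in mTERT KO livers, against 10.04, 10.50 and 10.30 in mTERT WT livers. It read 10.15, 10.45 and 10.42 in mTR KO livers, against 10.29, 10.38 and 10.49 in mTR WT livers. Mouse 1 had the lowest Otc value of each group, while KO and WT overlapped. Slc25a15, the ornithine carrier, read 10.08, 9.78 and 9.77 in mTERT KO livers, against 10.25, 9.90 and 9.79 in mTERT WT livers. It read 10.20, 9.74 and 9.99 in mTR KO livers, against 10.18, 9.58 and 9.90 in mTR WT livers. Here mouse 1 was the highest of each group, KO and WT overlapped again, and the SD over 12 arrays was the widest of the members at 0.212.

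The cytosolic steps follow. The probe of Ass1 or Gm5424 with the higher mean read 12.55, 12.77 and 12.61 in mTERT KO livers, against 12.49, 12.60 and 12.64 in mTERT WT livers. It read 12.52, 12.63 and 12.74 in mTR KO livers, against 12.60, 12.56 and 12.78 in mTR WT livers. KO and WT overlapped, and how much of the signal is Ass1 cannot be told from a shared probe. Asl, the gene of the lyase that releases arginine, read 10.05, 10.10 and 9.60 in mTERT KO livers, against 10.15, 10.15 and 9.98 in mTERT WT livers. It read 10.25, 10.06 and 10.14 in mTR KO livers, against 10.35, 9.86 and 10.17 in mTR WT livers. The lowest Asl value of all was that of mTERT KO 3, whose littermate was the lowest of mTERT WT. Arg1, the gene of the arginase that yields urea, read 10.92, 10.81 and 10.50 in mTERT KO livers, against 11.08, 10.81 and 10.61 in mTERT WT livers. It read 11.20, 10.74 and 10.83 in mTR KO livers, against 11.04, 10.76 and 10.85 in mTR WT livers. As for Slc25a15, mouse 1 was the highest of every group.

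Hal, outside the cycle, read 10.98, 11.06 and 11.33 in mTERT KO livers, against 10.68, 11.03 and 11.38 in mTERT WT livers. It read 10.96, 11.08 and 11.07 in mTR KO livers, against 11.14, 11.10 and 11.22 in mTR WT livers. In the mTR line the highest KO value, 11.08, lay just below the lowest WT value, 11.10, and the test below did not call Hal. How many probes separate in this way was not counted, so this is no result about Hal. In the mTERT line the WT group held both the lowest and the highest array.

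**Figure D1:**
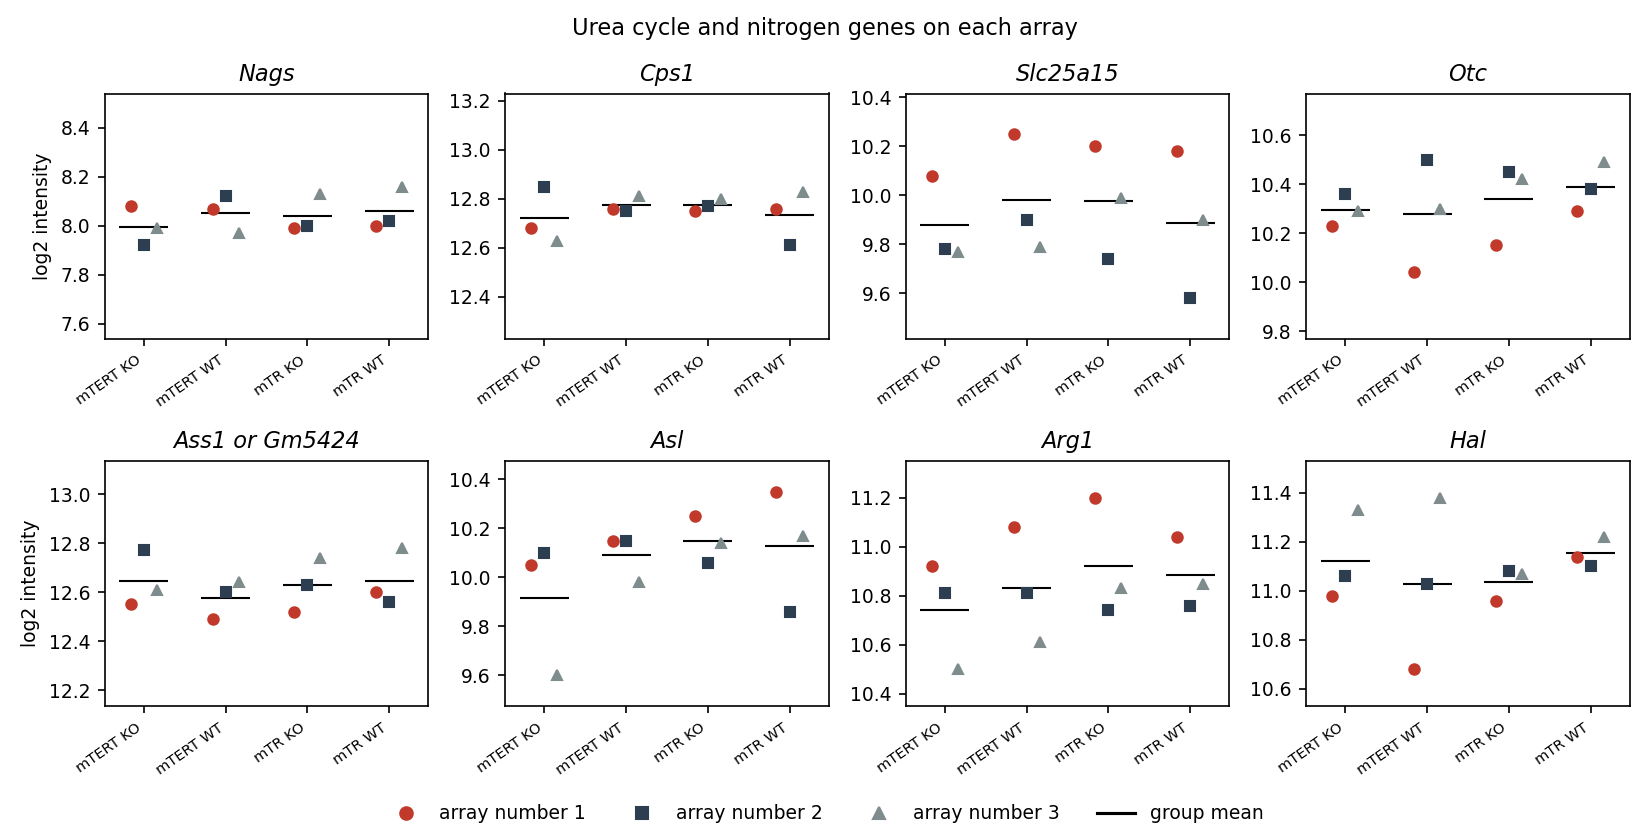
Log2 intensity (vertical axes, each panel spanning the same height) of 7 genes and of the probe of Ass1 or Gm5424 in the 4 groups; points are single mice, with shape and colour giving the mouse number, and lines are group means. Circles (mouse 1) lie highest in each group for Slc25a15 and Arg1 and lowest for Otc.

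Group means stood close together. For Asl and Arg1 the order from high to low was mTR KO, mTR WT, mTERT WT, mTERT KO, and for Cps1 and Slc25a15 it was mTERT WT, mTR KO, mTR WT, mTERT KO. Nags ran mTR WT, mTERT WT, mTR KO, mTERT KO, Otc ran mTR WT, mTR KO, mTERT KO, mTERT WT, and Hal ran mTR WT, mTERT KO, mTR KO, mTERT WT. Ass1 or Gm5424 ran mTERT KO, mTR WT, mTR KO, mTERT WT. In 8 of these 8, neighbours in the order differed by less than the pooled SD within groups. The whole span from highest to lowest mean was also under that SD in 7 of 8. The exception was Asl, whose mTR KO and mTERT KO means lay 0.232 apart against an SD of 0.198.

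In livers without mTERT, no urea cycle gene passed the test. Asl averaged 9.92 ± 0.275 in mTERT KO and 10.09 ± 0.0978 in mTERT WT (SD, n = 3 each). This is a log2 difference of −0.17 (SE 0.154, 95% interval −0.51 to 0.16), lower in the KO in 3 of 3 litters. Slc25a15 averaged 9.88 ± 0.179 in mTERT KO and 9.98 ± 0.239 in mTERT WT (SD, n = 3 each). The difference was −0.10 (SE 0.181, −0.50 to 0.29), also lower in 3 of 3 litters. The share of all probes with 1 sign in 3 of 3 litters was not computed, so such counts are description only. For the remaining genes the differences were −0.089 for Arg1, −0.061 for Nags, −0.052 for Cps1, 0.013 for Otc, 0.064 for Ass1 or Gm5424 and 0.094 for Hal. limma called 0 of the 7 members, and 0% of all 20197 probes, at an adjusted p under 0.05; each member had an adjusted p of 1 and an unadjusted p between 0.28 and 0.923. The 95% intervals of the 7, each for 1 gene alone and without pairing of littermates, ran from 0.702 to 1.36 times the WT level. With the litter as a block the SE was smaller, at 0.0992 for Asl, 0.0816 for Slc25a15 and 0.0898 for Cps1, and 0 members were called. All 3 mTERT WT livers carried pancreas or muscle transcripts. Leaving out the muscle-bearing arrays turned the Otc difference to −0.203, and leaving out the pancreas-bearing arrays turned that of Hal to −0.185, both uncalled. Each removal leaves 1 mTERT WT array, assumed to vary like the other groups.

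In livers without mTR, the differences were of similar size and no member passed. Hal averaged 11.04 ± 0.0673 in mTR KO and 11.15 ± 0.0603 in mTR WT (SD, n = 3 each). The log2 difference was −0.12 (SE 0.157, 95% interval −0.46 to 0.23), lower in the KO in 3 of 3 litters. Slc25a15 averaged 9.98 ± 0.232 in mTR KO and 9.89 ± 0.30 in mTR WT (SD, n = 3 each). The difference was 0.093 (SE 0.181, −0.30 to 0.49), higher in 3 of 3 litters. Nags was also lower in the KO in 3 of 3 litters. Here too the share of all probes with 1 sign in 3 of 3 litters was not computed. The others differed by 0.042 for Cps1, 0.038 for Arg1, 0.021 for Asl, −0.014 for Ass1 or Gm5424, −0.021 for Nags and −0.049 for Otc. limma called 0 of 7 members and 0% of probes, with adjusted p of 1 for each member and unadjusted p from 0.476 to 0.896. The intervals, again each for 1 gene alone and without pairing of littermates, ran from 0.727 to 1.4 times the WT level. With the litter as a block the SE was 0.0944 for Hal and 0.0816 for Slc25a15, and 0 members were called. Of the KO arrays, mouse 1 held the highest pancreas mean of the series; without the pancreas-bearing arrays the Slc25a15 difference was −0.173, uncalled.

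**Figure D2:**
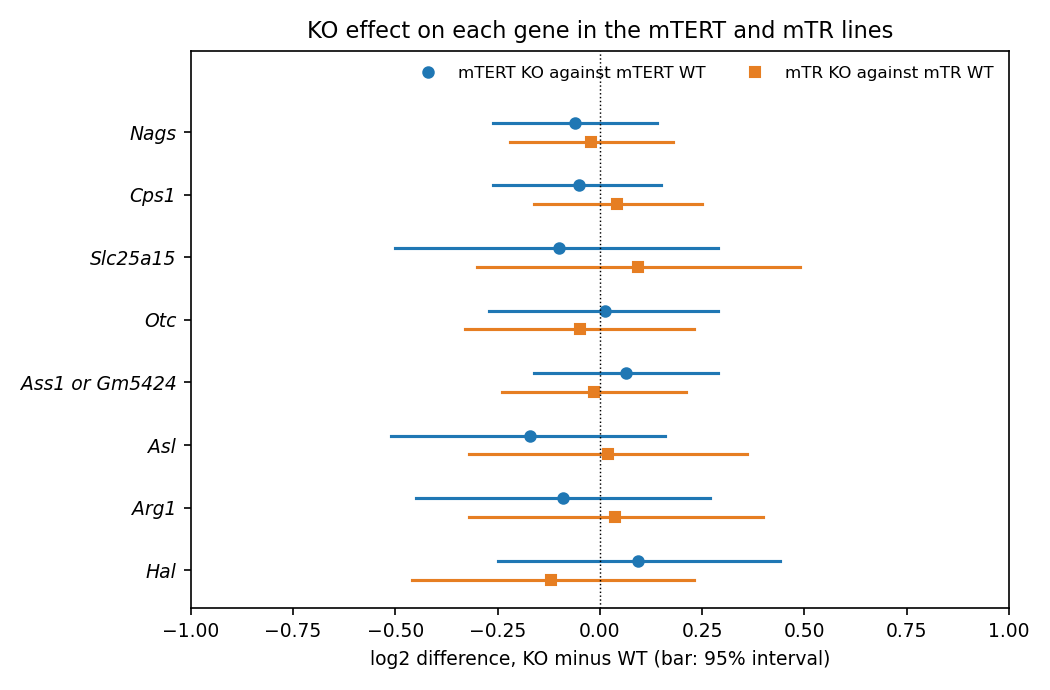
Log2 difference of KO minus WT (horizontal axis) for each gene in the mTERT line (circles) and in the mTR line (squares), with bars for the 95% interval of the limma fit. Every interval shown includes 0; the lowest bound is −0.51, for Asl in the mTERT line, and the highest is 0.49, for Slc25a15 in the mTR line.

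The effects of the knock-outs were also averaged and compared. The mean of both KO effects ran from −0.077 for Asl to −0.005 for Cps1 over the 7 members, with interval bounds between −0.32 and 0.27, and was 0.025 for Ass1 or Gm5424. Leaving out 1 array or another turned its sign for every gene but Nags. The mTERT KO effect minus the mTR KO effect ran from −0.20 for Slc25a15 to 0.21 for Hal, with unadjusted p between 0.364 and 0.768. The WT groups, mTR minus mTERT, differed by −0.096 for Slc25a15 up to 0.13 for Hal. The KO groups, mTR minus mTERT, differed by −0.084 for Hal up to 0.23 for Asl. In each of these 4 comparisons limma called 0 of the 7 members and 0% of 20197 probes, with adjusted p of 1 for every member. Without the pancreas-bearing arrays, which leaves 1 mTERT WT array, the difference between the KO effects turned to 0.154 for Slc25a15 and −0.0831 for Hal. Likewise the difference of mTR WT minus mTERT WT turned to 0.246 for Slc25a15 and −0.198 for Hal, all uncalled. Probes at an unadjusted p under 0.05 numbered 283 for mTERT KO, 195 for mTR KO, 143 for the mean of both, 293 for their difference, 525 for the WT groups and 384 for the KO groups.

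The range of the litter means was set beside the mean gap between littermates. Arg1 litter means spanned 0.45 in the mTERT line, with litter 3 lowest at 10.55, while KO and WT littermates lay 0.0914 apart on average. In the mTR line the Arg1 litter means were 11.12, 10.75 and 10.84, a range of 0.37 against a mean littermate gap of 0.0645. Slc25a15 showed the same picture, with ranges of 0.39 and 0.53 in the mTERT and mTR lines and mean littermate gaps of 0.104 and 0.093. Hal litter means in the mTERT line were 10.83, 11.04 and 11.35, a range of 0.52 against a gap of 0.127. The range of litter means exceeded the mean littermate gap in 14 of 16 pairs of gene and line, Cps1 in the mTERT line and Hal in the mTR line being the exceptions. A range and a mean gap are unlike measures, and the range can be the larger without any litter effect. The ranges also include the litters numbered 1, and the share over all probes was not computed. The count is therefore no test of a litter effect.

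The mice numbered 1 stood apart from those numbered 2 and 3 across the array, a split known from earlier results of these data and not a comparison the study set out. Of all 20197 probes, 38.2% were called in this comparison, 17.1% higher and 21.1% lower in number 1. Slc25a15 and Arg1 rose in the number 1 livers and Otc fell. Slc25a15 lay between 10.08 and 10.25 in the 4 number 1 livers and between 9.58 and 9.99 in the other 8, with no overlap. With group means removed it was higher by a log2 difference of 0.37 (SE 0.0747, 95% interval 0.21 to 0.54, limma adjusted p 0.00224), or 1.29-fold. By group the shift was 0.31 (mTERT KO), 0.34 (mTR KO), 0.40 (mTERT WT) and 0.44 (mTR WT). The ornithine carrier was thus higher in number 1 in 4 of 4 groups. How many of all probes show no overlap was not counted, so its separation is description only.

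Arg1 lay between 10.92 and 11.20 in the number 1 livers and between 10.50 and 10.85 in the others, again without overlap. It was higher by 0.32 (SE 0.0742, interval 0.16 to 0.48, limma adjusted p 0.00513), and in 4 of 4 groups. Otc lay between 10.04 and 10.29 in the number 1 livers and between 10.29 and 10.50 in the others. It fell by 0.22 on the log2 scale (SE 0.0659, interval −0.37 to −0.08, limma adjusted p 0.0195), in 4 of 4 groups. Asl differed by 0.19 (limma adjusted p 0.136), Hal by −0.22 (0.0836) and Ass1 or Gm5424 by −0.13 (0.14), each with 1 sign in 4 of 4 groups but not past the threshold. The 4 groups hold only 2 litters of number 1. The share of all probes with 1 sign in 4 of 4 groups was not computed, so such counts are description only. The share of all probes without overlap was not computed either, so the separation of Arg1 is also description only. Cps1 at −0.018 and Nags at −0.0029 had shifts near 0.

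In all, 2 of the 7 members rose and 1 fell in the number 1 livers. Beside the 38.2% of all probes called, this share is no result about the members. Littermates are not independent, and the 4 number 1 livers belong to 2 litters. With the litter as a random block the adjusted p by limma was 0.00294 for Slc25a15, 0.00682 for Arg1 and 0.0272 for Otc. That fit used 1 correlation within litters, 0.0938, for all probes. It was not set for each gene, so the dependence of littermates in these members may not be fully taken up. Otc was no longer called without mTERT WT 1 (−0.177, adjusted p 0.0967 by limma), without mTR KO 1 (−0.203, adjusted p 0.0748) or without the muscle-bearing arrays (−0.177, adjusted p 0.0871). Asl passed without mTERT KO 2 (0.242, limma adjusted p 0.0462). Other marker lists held called genes: 4 of 8 sinusoidal endothelium genes were lower in number 1 and 4 of 12 acute phase genes higher. Over all genes 21.3% were lower and 14.8% higher, and no difference from all genes was tested. Called higher were also 2 of 7 hepatocyte, 2 of 12 pancreas acinar, 1 of 8 macrophage and 1 of 2 red cell genes. Called lower were 1 of 7 hepatocyte genes and 1 of 5 T and NK cell genes. The red cell mean was 5.54 to 5.6 in number 1 livers and 5.33 to 5.48 in the others. Of its 3 genes 2 lay below background. The mean of the endothelial list was 7.11 to 7.28 in the number 1 livers and 7.14 to 7.57 in the others. The acute phase mean was 11.1 in mTERT WT 1, the liver with the lowest Otc and Hal, and 9.07 to 9.77 elsewhere; the part of these markers was not tested. Pancreas transcripts were present in 3 of the 4 number 1 livers. Without the pancreas-bearing arrays, which leaves mTR WT 1 as the lone number 1 array, 0 members and 272 probes were called. Slc25a15 was then at 0.28, Arg1 at 0.189 and Otc at −0.206, with limma adjusted p of 0.49, 0.683 and 0.581; the part of the pancreas transcripts was not tested.

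**Figure D3:**
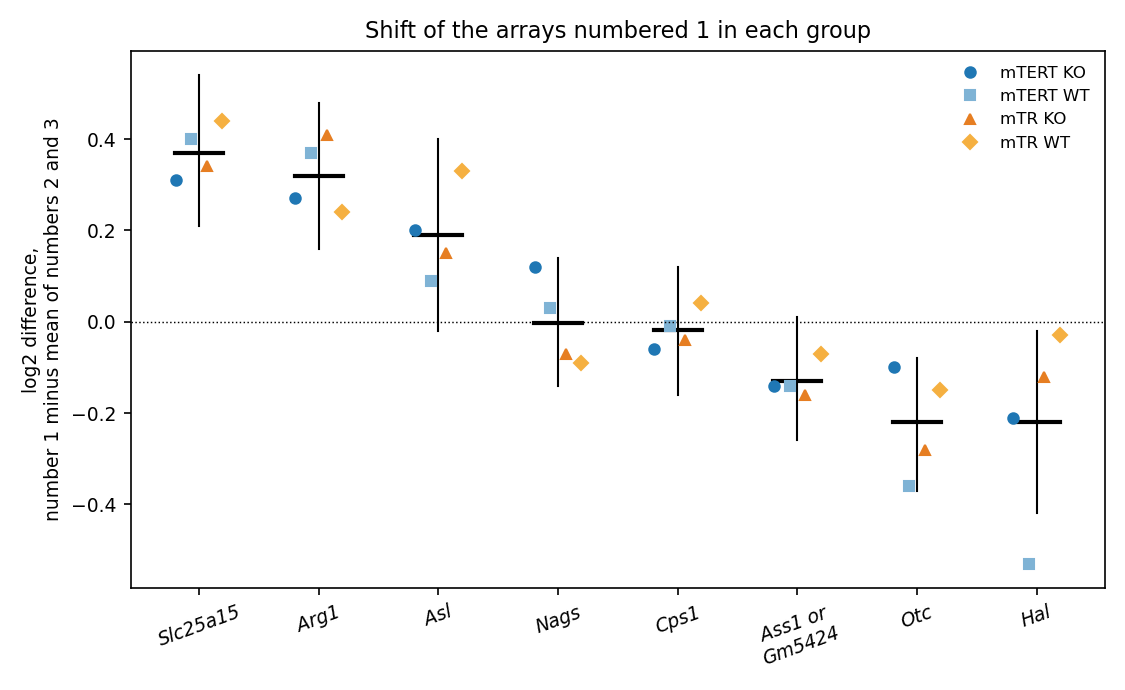
Log2 difference of the mouse numbered 1 minus the mean of mice 2 and 3 (vertical axis) for each gene; points are the 4 groups, horizontal lines the fitted shift and vertical lines its 95% interval. All 4 points lie above 0 for Slc25a15, Arg1 and Asl and below 0 for Otc, Hal and Ass1 or Gm5424, while Nags and Cps1 straddle 0.

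Genes that feed or branch from the cycle were read the same way. Of 28 such genes 27 were tested, and 0 passed in either KO comparison; their median log2 difference was 0.012 for mTERT KO and 0.025 for mTR KO, beside 0.012 and −0.016 over all genes. The smallest p values in the mTERT line belonged to Car5a, the mitochondrial carbonic anhydrase that supplies bicarbonate to CPS1, at 0.22 (8.46 in KO, 8.24 in WT), and Rhbg, an ammonia transporter, at −0.36. In the mTR line they belonged to Slc38a5, a glutamine transporter, at 0.45, and Arg2, the second arginase, at 0.21, both near or below background. In the number 1 livers 5 of the 27 rose and 1 fell, with a median of 0.106 beside −0.038 over all genes. With 1 probe for each of 14160 genes, 14.8% were higher, 21.3% lower and 36.1% called in either direction, so fewer of these genes were called than of all genes. Gpt2, a mitochondrial alanine aminotransferase, averaged 10.12 ± 0.081 in the number 1 livers and 9.61 ± 0.172 in the others (SD, n = 4 and 8; limma adjusted p 0.00156). Agmat, named for agmatine hydrolysis, rose by 0.34, Mdh1, the cytosolic malate dehydrogenase, by 0.22 and Slc38a2, an amino acid transporter, by 0.50.

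Of 39 genes of amino acid breakdown 34 were tested, and 0 passed in either KO comparison, with medians of 0.022 for mTERT KO and −0.005 for mTR KO. By the smallest p these were led by Agxt (0.32) and Acmsd (−0.35) for mTERT KO and by Shmt1 (0.16) and Kynu (−0.13) for mTR KO. In the number 1 livers 6 rose and 5 fell, near the 36.1% called over all genes, with a median of 0.011 beside −0.038. Amdhd1, which acts after HAL in histidine breakdown, averaged 9.41 ± 0.126 in the number 1 livers and 9.81 ± 0.0992 in the others (SD, n = 4 and 8; limma adjusted p 0.00128). Amt and Gcsh, parts of the glycine cleavage system, fell by 0.44 and 0.43 on the log2 scale. Cbs, the gene of cystathionine beta-synthase, rose by 0.45.

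Zonation was read from lists of marker genes chosen by name, and the zone of each gene was not checked in these data. Some of them touch nitrogen, such as Etnppl in the periportal list and the amino acid transporter Slc1a4 in the pericentral list. The periportal list also holds Rnf43, a gene of Wnt signalling, so the counts are those of the lists as written. Of 15 periportal markers 0 passed in either KO comparison, with medians of 0.026 for mTERT KO and −0.029 for mTR KO, and the same held for 13 pericentral markers, at 0.005 and 0.064. The smallest p values were those of Pigr (−0.13) and Aldh1b1 (0.16) for mTERT KO and Aldh1b1 (0.20) and Fbp1 (0.10) for mTR KO among periportal markers. Among pericentral markers they were those of Lgr5 (0.42) and Tbx3 (−0.44) for mTERT KO and Slc1a4 (0.33) and Cyp7a1 (0.47) for mTR KO. In the number 1 livers 2 periportal markers rose and 7 fell (median −0.228), and 2 pericentral markers rose and 7 fell (median −0.273). Over all genes 14.8% rose and 21.3% fell, with a median of −0.038, so falls outnumbered rises there too, and no difference from all genes was tested. Among periportal markers Apoa4, an apolipoprotein gene, rose by 0.68, while Igf1 fell by 0.50, Ctsc by 0.83 and Hsd17b6 by 0.93. Among pericentral markers Nr1i3, the nuclear receptor CAR, rose by 0.66, while Cyp7a1 fell by 0.98, Rgn by 0.39 and Cyp1a2 by 0.37.

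Regulators of urea cycle genes, such as the glucocorticoid receptor and C/EBP factors, were tested for 16 of 17 genes. In the KO comparisons 0 passed, with medians of 0.068 for mTERT KO and −0.084 for mTR KO. Over the list the differences ran from −0.32 to 0.60 for mTERT KO and from −0.89 to 0.17 for mTR KO. The mTERT KO effect minus the mTR KO effect ran from −0.49 to 1.49. Between the KO groups, mTR minus mTERT, the differences ran from −1.28 to 0.15. In these comparisons too, 0 were called. Foxa2 and Foxa1, liver pioneer factors, had the smallest p values for mTERT KO at 0.29 and 0.31, and Crem (−0.32) and Foxa2 (−0.17) for mTR KO. In the number 1 livers 7 rose and 1 fell, beside 14.8% higher and 21.3% lower over all genes, with a median of 0.027 beside −0.038; no difference from all genes was tested. Cebpb, the gene of C/EBP beta, averaged 8.83 ± 0.255 in the number 1 livers and 7.48 ± 0.309 in the others (SD, n = 4 and 8), a log2 difference of 1.35 (limma adjusted p 0.000101) without overlap. Crtc2, a coactivator of cyclic AMP signalling, rose by 0.66 and Hnf4a, a master regulator of hepatocyte genes, by 0.58. Hnf4a also stands in the hepatocyte marker list and is counted among its called genes. Nr3c1, the glucocorticoid receptor gene, fell by 0.45 on the log2 scale. Crtc2, Hnf4a and Nr3c1 did not overlap either, and how many of all probes separate in this way was not counted.

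**Figure D4:**
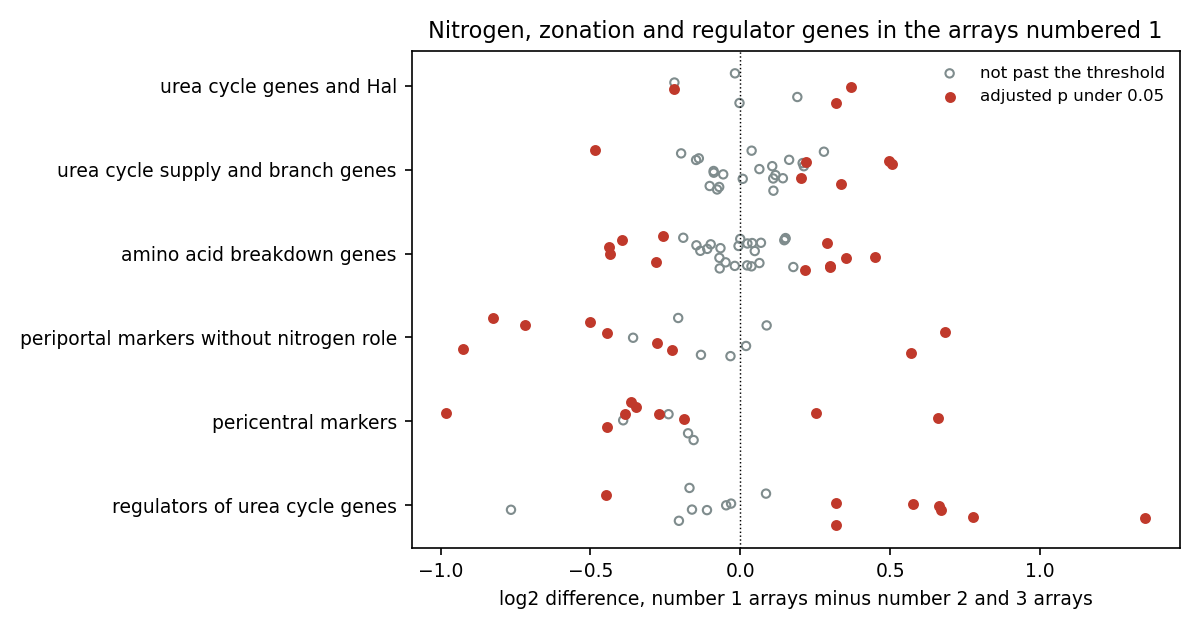
Log2 difference of number 1 livers minus number 2 and 3 livers (horizontal axis) for every tested gene of 6 lists; each point is 1 gene, filled where limma's adjusted p was under 0.05, and the vertical spread within a list carries no value. Periportal and pericentral markers lie mostly below 0, and Cebpb is the regulator farthest to the right, at 1.35. The label of the periportal list, without nitrogen role, does not hold for Etnppl.

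Genes with the most similar pattern over the 12 arrays were sought for the 4 members with the widest spread, by the root mean square difference of values centred on each gene's mean. Slc25a15 was nearest to Trappc10 (0.054), Samt4 (0.0739, itself below background on every array) and Slc25a23 (0.0746), among 4080 genes of like spread. Arg1 was nearest to Zfp36 (0.0739), Park7 (0.0752) and Fndc4 (0.0793), among 4553. Asl was nearest to Med20 (0.081), Cyp27a1 (0.0964) and Cyth1 (0.098), among 4611. Hal was nearest to Scyl3 (0.071), Ccdc50 (0.0768) and Pde6d (0.0783), among 4967. All of these share the 12 arrays and their split by mouse number.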

How the data were processed

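The values are log2 intensities of 28853 probes (probe sets) as deposited by the authors, 1 column per array; the base is inferred from the range of 2.622 to 13.83. PLIER, GCOS 1.4 and Affymetrix Expression Console stand in the submitters' processing notes without their roles, and the normalization is not given in the sources used here. Per the labels, RNA was extracted with Trizol, cleaned on RNeasy columns and amplified once with random primers. Of the probes 21789 had 1 gene symbol, 1621 several and 5443 none, and 21698 were matched by Entrez identifier to GRCm38.p6 RefSeq names. A gene was represented by its probe with the highest mean.

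limma 3.58.1 under R 4.3.3 fitted 4 group means to all 12 arrays (lmFit, eBayes), for the 20197 probes whose mean reached the 30th percentile (3.898); the number 1 comparison added 1 term. P-values were two-sided and adjusted by Benjamini-Hochberg over all probes, with a threshold of 0.05; intervals are 95%. All 7 members passed the filter. The script was tested on simulated data. The number of arrays limits the precision. P-values set a difference against the spread between these mice that the fit leaves. In the number 1 comparison that spread is between mice that include littermates, which are not independent. The members, lists and the number 1 comparison were chosen with earlier results of these data known. Named are all members, Tert and Terc, per list the 2 genes with the smallest p in each KO comparison and the 4 with the smallest adjusted p in the number 1 comparison, and the 3 genes nearest in pattern.

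The series text says that KO and WT mice of a set were littermates, and equal numbers were read as a set. After removal of group means, the correlation of equally numbered KO and WT arrays was 0.692, 0.135 and 0.623 for mTERT and 0.458, 0.151 and 0.552 for mTR. Mouse 2 KO arrays correlated more with WT 3, at 0.416 and 0.464. Alternatives were other normalizations, filters, eBayes settings and array weights, a fit of the compared groups alone, 1 probe per gene, other probes of a gene, a replicate block and leaving out arrays. The replicate block was the litter, except between the WT groups and between the KO groups. There it was the mouse number, which joins mice of both lines that are not littermates.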

Additional observations from a re-analysis of the deposited data

Results flagged for a closer look

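Slc25a15, the gene of the mitochondrial ornithine carrier, was lower in the mTERT KO than in its WT littermate in 3 of 3 litters. In the mTR line it was higher in the KO than in its WT littermate in 3 of 3 litters. The smallest gaps were −0.03 in mTERT litter 3 and 0.03 in mTR litter 1. Asl in the mTERT line and Nags and Hal in the mTR line also kept 1 sign in 3 of 3 litters. The share of all probes that do so was not computed, so the signs are description only. For Slc25a15 the mTERT KO effect minus the mTR KO effect was −0.20 (log2, SE 0.255, 95% interval −0.76 to 0.36). The difference itself was tested and missed the threshold, with a limma adjusted p of 1 and an unadjusted p of 0.456. With the litter as a block it was −0.197 (SE 0.115, limma adjusted p 0.81). Without the pancreas-bearing arrays, which leaves 1 mTERT WT array, it turned to 0.154, and the mTR KO effect to −0.173, both uncalled.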

How the results depend on the processing

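In the 6 group comparisons the count of members called stayed at 0 under every alternative run. Of 1142 member values there, 1127 moved by less than the replicate SD and 15 by more; 110 changed sign, all uncalled, and the lowest adjusted p by limma was 0.753. For the number 1 comparison 169 of 177 values stayed the same. Called values among them kept their call and direction, and uncalled values moved by less than the replicate SD. Of the rest, 6 lost their call, 1 gained a call, and 1, Nags without the pancreas-bearing arrays, moved by more than the SD while uncalled. With the replicate block, 0 probes and 0 members were called in each of the 6 comparisons, so it changed no call; probes at an unadjusted p under 0.05 by limma were 1037 for mTERT KO, 851 for mTR KO, 639 for the mean of both, 1264 for their difference, 1386 for the WT groups and 1142 for the KO groups.

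Counts of probes called, 0 in each of these comparisons as reported, moved as follows. Without the 4 arrays numbered 1, there was 1 for mTERT KO, 1 for mTR KO and 1 for the mean of both. Without the pancreas-bearing arrays, an alternative chosen after seeing the data like the removal of muscle-bearing arrays and the random litter block, there were 72 for mTERT KO, 36 for the mean, 38 for the difference and 97 between WT groups; these rest on 1 remaining mTERT WT array, assumed to vary like the other groups. Array weights gave 1 between KO groups. Leaving out 1 array in turn gave 0 to 41 for mTERT KO, 0 to 28 for the mean, 0 to 30 for the difference and 0 to 42 between WT groups, the highest each time without mTERT WT 2. The 7709 probes of the number 1 comparison became 5064 with 1 probe per gene, where fewer were tested, and 272 without the pancreas-bearing arrays, where its 3 called members became 0 and 1 number 1 array was left. Apart from the fewer probes or arrays, the cause was not tested. Fitting only the compared groups gives no value for the mean or the difference, and the number 1 comparison has none without its own arrays. Probes near background give no reliable size.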
